A study of Mus musculus with 6 samples.

Results

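E protein genes and Id genes were described in mouse intestinal crypts from the deposited table of transcript levels. The members were chosen by gene symbol and not by a rule on measured values, though earlier results of these data were known. They are the 3 E protein genes Tcf3, Tcf4 and Tcf12 and the 4 Id genes Id1, Id2, Id3 and Id4. This makes 7 of the 24736 genes in the table. All 7 were measured in every library, and all 7 passed the filter of a mean of at least 1 TPM (a level per transcript length that can be compared between genes, with an equal sum in each library) over the 6 libraries.

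RNA sequencing was performed on intestinal crypt epithelium of 3 WT and 3 Mtg16-/- mice, with 1 library per mouse, to ask what the corepressor MTG16 does in the early progenitors of the crypt. All mice were 12-week-old males. The WT mice were untreated, the labels call the other mice Mtg16 KO and give a CRISPR-induced knockout as their treatment, whereas the methods of the study describe Mtg16-/- mice obtained from another laboratory, and this difference was not resolved. The crypts of both groups were released from the intestine in cold buffer with 2 mM EDTA for 30 min, and no cell type was sorted. The sources used here give no genetic background and do not say whether the WT mice were littermates. No promoter or Cre driver is given for the knockout, so it is not known from them to be limited to the epithelium.

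E proteins are basic helix-loop-helix transcription factors found in most tissues. They bind the E box (CANNTG) as dimers, either with one another or with a tissue-specific factor such as ATOH1, which drives secretory cells in the gut, or ASCL2, which marks crypt stem cells. Id proteins have the helix-loop-helix but no basic region, so they pair with E proteins and keep them off DNA. MTG16 and its relatives bind the activation domain of E proteins and bring corepressors to them. The gene Tcf4 of this family encodes E2-2, and must not be taken for Tcf7l2, whose protein is often called TCF4 in work on Wnt signalling.

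The stretch of coding sequence that separates both kinds of protein is given for 6 of the members, as 120 bases, or 40 codons, of the sense strand from the GRCm38 annotation (GENCODE vM21). In the Id genes the stretch covers the helix-loop-helix, and capitals mark the 22 of 40 codons at which all 4 Id genes encode the same amino acid. In the E protein genes it starts in the basic region, and capitals mark the 4 codons of the segment that contacts the E box. Id1 lies at chr2:152736251-152737410, with the stretch in exon 1 on the plus strand at chr2:152736518-152736637. Id2 lies at chr12:25093799-25097140, with the stretch in exon 1 on the minus strand at chr12:25095783-25095902. Id3 lies at chr4:136143497-136145755, with the stretch in exon 1 on the plus strand at chr4:136144002-136144121. Id4 lies at chr13:48261228-48266026, with the stretch in exon 1 on the plus strand at chr13:48261693-48261812. Tcf3 lies at chr10:80409514-80433647, with the stretch in exon 18 of the transcript used, on the minus strand at chr10:80412876-80412995. Tcf12 lies at chr9:71842688-72111871, with the stretch in exon 19 of the transcript used, on the minus strand at chr9:71856354-71856473.
Id1: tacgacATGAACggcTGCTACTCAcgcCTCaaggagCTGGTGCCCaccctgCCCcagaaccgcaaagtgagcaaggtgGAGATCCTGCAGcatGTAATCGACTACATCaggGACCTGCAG
Id2: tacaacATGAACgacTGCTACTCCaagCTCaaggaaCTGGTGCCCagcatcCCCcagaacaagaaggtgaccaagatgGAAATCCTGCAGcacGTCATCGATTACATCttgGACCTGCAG
Id3: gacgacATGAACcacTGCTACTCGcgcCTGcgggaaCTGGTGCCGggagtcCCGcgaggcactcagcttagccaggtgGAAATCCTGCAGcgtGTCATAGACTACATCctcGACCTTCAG
Id4: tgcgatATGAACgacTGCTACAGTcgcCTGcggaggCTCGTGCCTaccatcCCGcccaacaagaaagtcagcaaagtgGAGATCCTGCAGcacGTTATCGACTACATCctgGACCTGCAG
Tcf3: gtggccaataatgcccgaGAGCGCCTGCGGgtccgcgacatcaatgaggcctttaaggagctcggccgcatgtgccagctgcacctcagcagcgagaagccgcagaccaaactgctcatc
Tcf12: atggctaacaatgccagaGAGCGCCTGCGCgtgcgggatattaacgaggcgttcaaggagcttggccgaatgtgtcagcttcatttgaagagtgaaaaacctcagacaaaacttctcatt

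The longest coding sequence of each gene was used, so the comparison covers 1 transcript per gene. The contact segment occurred 1 time in that of Tcf3 and 1 time in that of Tcf12, and it did not occur in those of the 4 Id genes. Over the stretch, Tcf3 and Tcf12 encoded the same amino acid at 95% of codons, although only 76.7% of their bases were the same. Among the Id genes, Id1 and Id4 were the most alike, with 80% of codons encoding the same amino acid, and Id2 and Id3 the least, with 60%. In their bases, pairs of Id genes were 70.8% to 81.7% identical. Exons of an opposite-strand gene, A330033J07Rik, overlapped 82 of the 3849 exonic bases of Id4, and A330033J07Rik was listed at a TPM of 0 in all 6 libraries. Another opposite-strand gene, which was not analysed here, overlapped 171 exonic bases of Id4, and whether these include any of the 82 was not checked. The sources used here do not say whether strand was used in counting. Tcf3 has 14 annotated transcripts, which include those of E12 and E47, and Tcf12 has 21, so a level per gene does not tell their forms apart.

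Epithelial markers were high in all libraries, though they do not separate crypt from villus. The summed TPM of 9 epithelial markers was 10381 to 12203 in WT and 9583 to 11195 in Mtg16-/- libraries. The summed TPM of 8 fibroblast and muscle markers was only 2.83 to 5.58 in WT and 5.21 to 6.91 in Mtg16-/-, with Lum at 0 in every library, and that of 5 endothelial markers was at most 2.91. Markers of T cells and intraepithelial lymphocytes were present, with a summed TPM over 8 genes of 142 to 483 in WT and 78.8 to 229 in Mtg16-/-. The sums were 20.3 to 55.9 and 31.8 to 81.0 for 6 B and plasma cell markers, and 16.3 to 21.9 and 14.4 to 16.7 for 6 myeloid and dendritic cell markers. Pearson's r between libraries, across genes on the log2 scale, was 0.931 to 0.980, and the depth of the libraries is unknown because TPM keeps no read number. Cbfa2t3, which encodes MTG16, had a TPM of 3.67, 6.69 and 4.52 in WT libraries and 4.62, 6.43 and 3.23 in Mtg16-/- libraries. These overlapped (log2 fold change -0.06, SE 0.27, limma adjusted p = 0.937), and a level per gene cannot show a missing exon, so the genotypes rest on the labels of the libraries.

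In every library, Id1 and Id3 each had a higher TPM than any E protein gene. By mean TPM the order was Id1, Id3, Tcf3, Tcf12, Id2, Tcf4 and Id4. It was the same in 5 of the 6 libraries, with WT replicate 1 as the exception, where Id2 was above Tcf12. The ranges over the 6 libraries overlapped between neighbours only for Tcf12 (45.3 to 50.4 TPM) and Id2 (24.7 to 46.4 TPM). Id1 exceeded 95.7% of all genes in the table by mean TPM, Id3 94.3%, Tcf3 90.5%, Tcf12 87.2% and Id2 82.1%. Tcf4 and Id4 were low, above 60.6% and 56.5% of all genes.

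**Figure D1:**
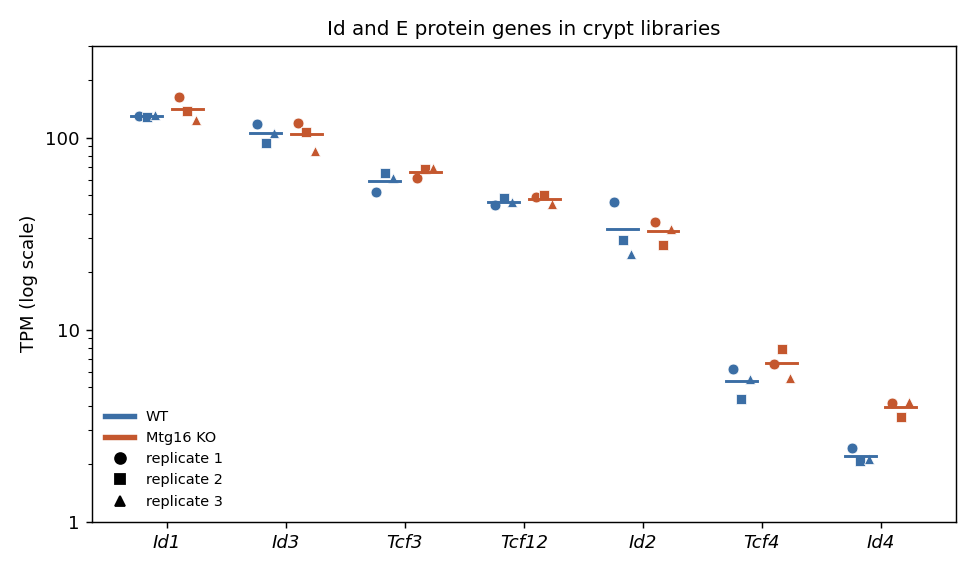
TPM of the 4 Id genes and the 3 E protein genes on a log scale, with 1 point per library and a bar at each group's mean (n = 3 mice per genotype). Id1 and Id3 are the highest in both genotypes, and only Id4 has all 3 Mtg16-/- points (3.52 to 4.21) above all 3 WT points (2.06 to 2.42).

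No E protein gene was called different between Mtg16-/- and WT crypts. Tcf3, which encodes the E2A proteins, had a TPM of 51.9, 65.4 and 61.6 in WT libraries and 61.8, 68.2 and 69.5 in Mtg16-/- libraries. The means of Tcf3 were 59.6 ± 6.96 and 66.5 ± 4.14 TPM (SD, n = 3 each). The groups overlapped, since WT replicate 2 lay above the lowest Mtg16-/- library. Its log2 fold change, taken as Mtg16-/- minus WT on the log2(TPM + 1) scale as for all fold changes here, was 0.16 (SE 0.13, 95% interval -0.14 to 0.46, limma adjusted p = 0.570).

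Tcf12, which encodes HEB, varied the least of the 7 genes over the 6 libraries. Its TPM was 44.8, 48.2 and 46.4 in WT libraries and 48.9, 50.4 and 45.3 in Mtg16-/- libraries. The groups overlapped, with means of 46.5 ± 1.72 (SD, n = 3) and 48.2 ± 2.61 (SD, n = 3). The log2 fold change of Tcf12 was 0.05 (SE 0.11, 95% interval -0.20 to 0.31, limma adjusted p = 0.852). Tcf4, known for its role in plasmacytoid dendritic cells, had a TPM of 6.24, 4.36 and 5.54 in WT libraries and 6.65, 7.89 and 5.57 in Mtg16-/- libraries. Only WT replicate 1 lay within the Mtg16-/- range. The log2 fold change of Tcf4 was 0.27 (SE 0.19, 95% interval -0.17 to 0.71, limma adjusted p = 0.514).

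Id1, Id2 and Id3, known targets of BMP signalling in many cells, did not pass the test either. Id1 had a TPM of 129.8, 128.3 and 130.5 in WT libraries and 162, 138 and 123 in Mtg16-/- libraries. The WT libraries were nearly equal, with a coefficient of variation of 0.899%, whereas the Mtg16-/- libraries spread on both sides of them with 14.0%. The means of Id1 were 130 ± 1.16 and 141 ± 19.8 TPM (SD, n = 3 each), with a log2 fold change of 0.11 (SE 0.13, 95% interval -0.19 to 0.42, limma adjusted p = 0.698). Id3 had a TPM of 117.6, 93.6 and 106 in WT libraries and 119.6, 107 and 85.5 in Mtg16-/- libraries. The highest and the lowest value of Id3 were both in Mtg16-/- libraries, so the groups overlapped entirely. The log2 fold change of Id3 was -0.03 (SE 0.16, 95% interval -0.40 to 0.33, limma adjusted p = 0.941).

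Id2 had a TPM of 46.4, 29.3 and 24.7 in WT libraries and 36.4, 27.6 and 33.3 in Mtg16-/- libraries. WT replicate 1 was the highest and WT replicate 3 the lowest of the 6, and the coefficient of variation within WT was 34.2%, against 13.7% within Mtg16-/-. The means of 33.5 ± 11.4 (SD, n = 3) and 32.5 ± 4.45 (SD, n = 3) TPM differed by far less than this spread. The log2 fold change of Id2 was -0.0017 (SE 0.23, 95% interval -0.53 to 0.53, limma adjusted p = 0.998). Id2 is also known for its role in innate lymphocytes. WT replicate 1 was at the same time the library with the highest summed TPM of the 8 lymphocyte markers, at 483. Its sum of 10 enterocyte markers was also the highest, at 37914, against at most 15895 in the other libraries. The lowest Id2, in WT replicate 3, came with sums of 274 and 15895, which were not the lowest. Mtg16-/- replicate 3 had the lowest sums, 78.8 and 6272, but not the lowest Id2. The difference of Id2 turned positive without WT replicate 1, at 0.25 (limma adjusted p = 0.565), and also without Mtg16-/- replicate 2, at 0.11. The part of these cell types in the level of Id2 was not tested.

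Id4 was the lowest of the 7 genes and the only one whose groups did not overlap. Id4 differs from the other Id proteins in that it can also bind them and oppose them. Its TPM was 2.42, 2.06 and 2.11 in WT libraries and 4.15, 3.52 and 4.21 in Mtg16-/- libraries. Every Mtg16-/- library was above every WT library, with means of 2.20 ± 0.195 (SD, n = 3) and 3.96 ± 0.382 (SD, n = 3) and a ratio of means of 1.80. The log2 fold change of Id4 was 0.63 (SE 0.18, 95% interval 0.23 to 1.04), with an unadjusted limma p of 0.00698 that did not pass the adjustment (limma adjusted p = 0.263). The two-sided exact permutation test gave p = 0.1, the smallest that 3 libraries against 3 allow. By unadjusted p, Id4 was number 313 among the tested genes.

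The counts over the 7 members were read against all tested genes. At a limma adjusted p under 0.1, 0 of the 7 members were called, where 4 of all 12268 tested genes, or 0.0326%, were called and 0.0163% were called as higher in Mtg16-/-. At an unadjusted p under 0.05 it was 1 of 7, Id4, where 14.6% of tested genes passed and 6.53% passed as higher. The groups did not overlap in 1 of 7 members, again Id4, where they did not overlap in 21.0% of tested genes, with 9.94% higher and 11.1% lower in every Mtg16-/- library. A count of 1 of 7 is near these background shares. The median log2 fold change of the 7 members was 0.11, against -0.03 over all tested genes, of which 5687 were positive and 6581 negative.

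**Figure D2:**
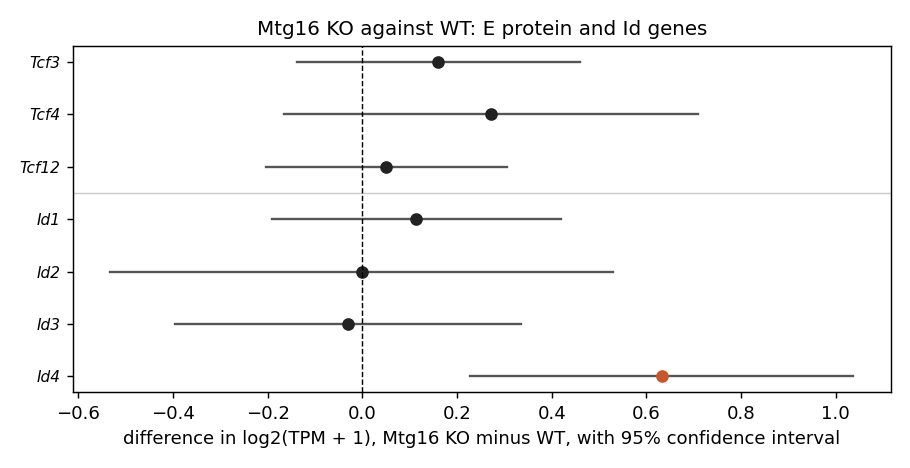
Difference in log2(TPM + 1) between Mtg16-/- and WT crypts for the 7 members (points) with 95% confidence intervals from limma (lines, n = 3 mice per genotype). Orange marks the gene whose groups do not overlap, Id4 at 0.63 with an interval of 0.23 to 1.04, and the intervals of the 6 others (black) include 0.

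In these bulk libraries, fewer cells of a type and less RNA per cell cannot be told apart. The summed markers of several crypt cell types moved in the same libraries as Id4. The summed TPM of 8 stem cell markers was 874 to 1500 in WT and 1628 to 2156 in Mtg16-/-, and all 8 had a positive fold change. For 8 enteroendocrine markers the sums were 242 to 306 and 407 to 434, and for 8 Paneth cell markers 11048 to 24020 and 29467 to 35628, with all 8 positive in both lists. The sum of 10 enterocyte markers was 12736 to 37914 in WT and 6272 to 12201 in Mtg16-/-, with all 10 negative. For 5 tuft cell markers the sums were 29.2 to 59.7 in WT and 23.7 to 28.5 in Mtg16-/-, with all 3 tested genes negative. The sums of 8 goblet cell markers overlapped, at 7295 to 11823 and 6480 to 9118, with 3 positive and 5 negative. None of the genes of these 6 lists was called at an adjusted p under 0.1, and none was at 0 in all libraries. The part of these cell types in the difference of Id4 was not tested.

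The 250 bases before the RefSeq start of Id4 are shown because Id4 is the member whose libraries separated by genotype. They lie on the plus strand of GRCm38.p6 at chr13:48260866-48261115, and capitals mark GGCGCC, a GC-rich element that SMAD proteins are known to bind, 148 to 143 bases before the start.
Id4 promoter: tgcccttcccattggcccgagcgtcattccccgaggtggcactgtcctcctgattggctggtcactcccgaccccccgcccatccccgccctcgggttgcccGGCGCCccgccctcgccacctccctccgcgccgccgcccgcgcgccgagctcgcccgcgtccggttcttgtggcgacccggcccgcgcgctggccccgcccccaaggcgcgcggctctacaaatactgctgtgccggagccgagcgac

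The window was searched on both strands for the E box, CANNTG, and for GGCGCC. It held no E box, whereas 66.2% of the 32851 promoter windows of the same length held at least 1. The GENCODE start of Id4, at chr13:48261228, lies downstream of the RefSeq start, at chr13:48261116, and the bases between them were not searched. GGCGCC, which reads the same on both strands, was present 1 time and was found in 9.59% of all windows. A match of letters is a description and not a binding site. The RefSeq promoter table matched 5 of the 7 members, and the entries for Tcf4 and Id1 were missing. Among the other matched members, Id2 also held 1 GGCGCC, whereas Tcf3, Tcf12 and Id3 held 0. Id3 held no E box either, while Tcf3 and Id2 held 1 each and Tcf12 held 1 in some of its windows.

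The ratio of inhibitor to E protein transcripts did not separate the genotypes. Summed over the 4 Id genes, the TPM was 296, 253 and 263 in WT libraries and 322.5, 276 and 246 in Mtg16-/- libraries. Summed over the 3 E protein genes, it was 103, 118 and 114 in WT libraries and 117, 126 and 120.4 in Mtg16-/- libraries. The ratio of the Id sum to the E protein sum was 2.88, 2.15 and 2.32 in WT and 2.75, 2.18 and 2.04 in Mtg16-/-, so transcripts of the inhibitors exceeded those of the activators in all 6 libraries. The mean ratios were 2.45 ± 0.383 and 2.32 ± 0.374 (SD, n = 3 each), and the groups overlapped. This ratio is taken within a library and is not changed by a scaling factor of the library. It covers all cells of a library together, so it gives no ratio within a cell and no ratio of proteins.

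Within the Id sum, Id1 made up 48.0% in WT and 50.1% in Mtg16-/- libraries, Id3 39.0% and 36.8%, and Id2 12.2% and 11.6%. The share of Id4 was 0.811% ± 0.00799 in WT against 1.42% ± 0.248 in Mtg16-/- (SD, n = 3 each), and every Mtg16-/- library had a larger share than every WT library. Even there, Id4 was at most 1.71% of the Id transcripts. Within the E protein sum, Tcf3 made up 53.4% and 54.8%, Tcf12 41.7% and 39.7%, and Tcf4 4.88% and 5.51%, and the groups overlapped for each of them.

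**Figure D3:**
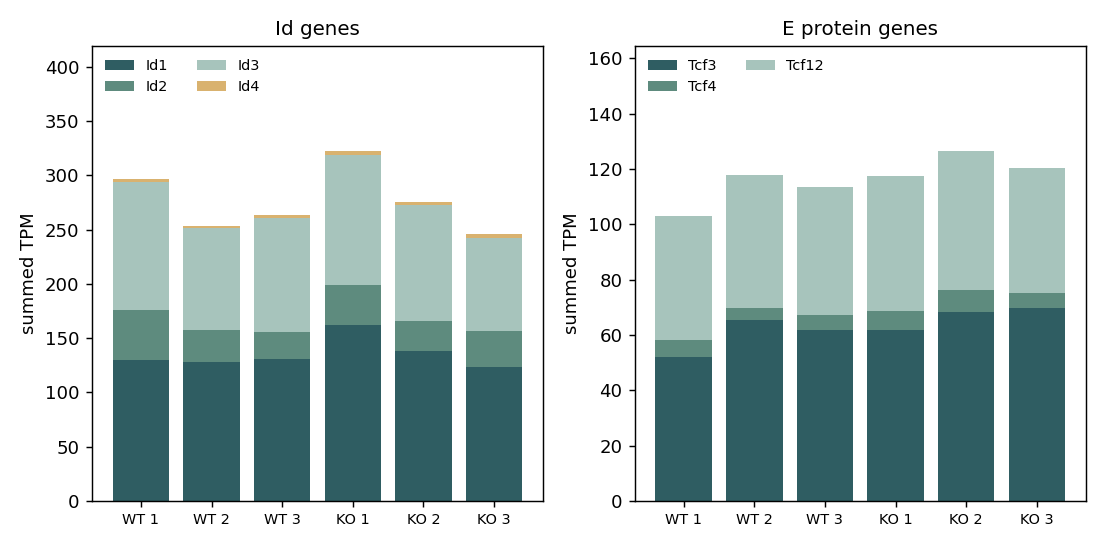
Stacked bars of TPM by library for the 4 Id genes and for the 3 E protein genes (axes start at 0), with the libraries named by genotype and replicate. The Id sums run from 246 to 322.5 TPM and the E protein sums from 103 to 126 TPM, and the genotypes overlap in both.

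The genes whose levels varied most like those of each member were found by the smallest root mean square difference between centred log2(TPM + 1) values over the 6 libraries. For Id4 they were Fhit and Lxn. Fhit had a TPM of 5.16, 4.17 and 4.60 in WT and 8.59, 7.72 and 8.08 in Mtg16-/- libraries, and Lxn 14.4, 12.4 and 12.9 in WT and 25.1, 20.1 and 25.1 in Mtg16-/- libraries. Both thus had the same separation of genotypes as Id4, at a difference of 0.0618 for Fhit and 0.0805 for Lxn, where Id4 itself varied by 0.327 around its mean. For Id3 they were Tmc4, at 0.0166, and Pnpla2, at 0.0197, against 0.170 for Id3 itself. For Id1 they were Flot1 and Lrch4, and for Id2 Gtf2b and Tmem144. Id2 had the largest difference of the 7 to its closest gene, at 0.0760 for Gtf2b, against 0.287 for Id2 itself. Beside its own variation, the match of Tcf12 was looser, at 0.0267 for Mbd1 against 0.0596 for Tcf12 itself. Among the E protein genes, Aimp1 and Ndufaf7 were closest to Tcf3, Mbd1 and Lmna to Tcf12, and 1700018L02Rik and Zfp108 to Tcf4. With 6 libraries and 12268 genes, a close match is found for any gene, and these are given as a description.

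Lists of genes linked to the 7 members, as partners or cofactors, BMP signalling genes and their targets, or E protein targets, held 69 genes in all. Of these, 36 were tested, 14 were at 0 in every library and 0 were called. Of the 36, 20 had a positive and 16 a negative fold change, with a median of 0.06, and in 5 the groups did not overlap, all higher in Mtg16-/-, where 21.0% of all tested genes did not overlap and 9.94% were higher. Unadjusted limma p was under 0.05 for 5 of the 36, where 14.6% of all tested genes passed.

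Among the partners of E proteins, Cbfa2t2, which encodes the MTG16 relative MTGR1, had a TPM of 12.3, 11.3 and 12.6 in WT and 11.5, 12.9 and 12.6 in Mtg16-/- libraries, a log2 fold change of 0.03 (limma adjusted p = 0.931). Runx1t1, which encodes MTG8, was too low to be tested, at 0.15, 0.29 and 0.35 TPM in WT and 1.2, 1.08 and 1.11 in Mtg16-/- libraries, and its groups did not overlap (two-sided exact permutation test, p = 0.1). The coactivators that E proteins recruit were not called in either direction. The log2 fold change was -0.23 for Ep300, -0.24 for Crebbp, -0.02 for Kat2a and 0.06 for Kat2b, with limma adjusted p from 0.552 to 0.976. Usp1, whose enzyme removes ubiquitin from Id proteins and keeps them stable, had a TPM of 51.4, 58.4 and 55.9 in WT and 51.4, 64.5 and 70.5 in Mtg16-/- libraries (log2 fold change 0.16, limma adjusted p = 0.620). Its cofactor Wdr48 had a log2 fold change of 0.10.

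Of 26 tissue-specific factors that pair with E proteins, 6 were tested and 10 were at 0 in every library. Atoh1 had a TPM of 19.1, 23.2 and 18.01 in WT and 17.3, 18.2 and 15.2 in Mtg16-/- libraries, which overlapped (log2 fold change -0.24, SE 0.15, limma adjusted p = 0.466). Ascl2 had 8.86, 14.6 and 13.9 TPM in WT and 13.1, 18.3 and 15.2 in Mtg16-/- libraries, which overlapped as well (log2 fold change 0.32, SE 0.21, limma adjusted p = 0.501). Averaged over all cells, crypts thus held fewer transcripts of each of these partners than of Tcf3 or Tcf12 in every library. The levels within the cells that express these partners were not measured. Neurog3, which starts the enteroendocrine lineage, had 3.34, 5.10 and 5.80 TPM in WT and 5.22, 11.3 and 12.6 in Mtg16-/- libraries, with a log2 fold change of 0.84 (SE 0.32, limma adjusted p = 0.309). Neurod1, which acts after it, was the partner whose groups did not overlap, at 2.55, 2.99 and 3.09 TPM in WT and 4.30, 4.19 and 6.69 in Mtg16-/- libraries (log2 fold change 0.62, SE 0.21, limma adjusted p = 0.282). Bhlha15, a factor of secretory cells, had a log2 fold change of 0.22 (limma adjusted p = 0.647).

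BMP signalling is the best known inducer of Id1 to Id3. Its ligands, receptors and SMADs were described by the transcripts of 13 genes, which do not measure the activity of the pathway. Of the 10 tested, 6 had a positive and 4 a negative fold change, the median was 0.08 and none was called. The receptor gene Bmpr1a had a log2 fold change of -0.0039, and the SMAD genes Smad1, Smad4 and Smad5 had 0.13, 0.12 and 0.31, with limma adjusted p from 0.397 to 0.992. Among 4 tested BMP targets other than the Id genes, the feedback inhibitor Smad6 had -0.03 and Smad7 -0.21, whereas Bambi and Atoh8 were higher in every Mtg16-/- library. Bambi had a TPM of 1.2, 3.48 and 2.07 in WT and 3.57, 4.58 and 3.51 in Mtg16-/- libraries (log2 fold change 0.64, SE 0.28, limma adjusted p = 0.341). Atoh8 had 1.40, 1.43 and 1.35 TPM in WT and 2.21, 3.26 and 2.47 in Mtg16-/- libraries (log2 fold change 0.60, SE 0.20, limma adjusted p = 0.284). Neither passed the adjustment, and the other targets Smad6, Smad7, Id1, Id2 and Id3 overlapped between the genotypes. Thus 2 of the 4 tested targets were higher without overlap, against 9.94% of all tested genes. A link between the level of a target and its difference was not tested.

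E proteins are known to raise, and Id proteins to lower, the genes of inhibitors of cyclin-dependent kinases. Of the 6 tested, 3 had a positive and 3 a negative fold change and none was called. Cdkn1a, which encodes p21, had a TPM of 145, 96.7 and 86.9 in WT and 119, 67.0 and 60.5 in Mtg16-/- libraries (log2 fold change -0.44, SE 0.29, limma adjusted p = 0.483), and the groups overlapped. Cdkn1b, which encodes p27, had 33.4, 35.4 and 39.0 TPM in WT and 39.7, 48.1 and 47.8 in Mtg16-/- libraries, which did not overlap (log2 fold change 0.32, SE 0.13, limma adjusted p = 0.322). Cdkn2b had a log2 fold change of -0.33 and Cdkn2c of 0.17.

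**Figure D4:**
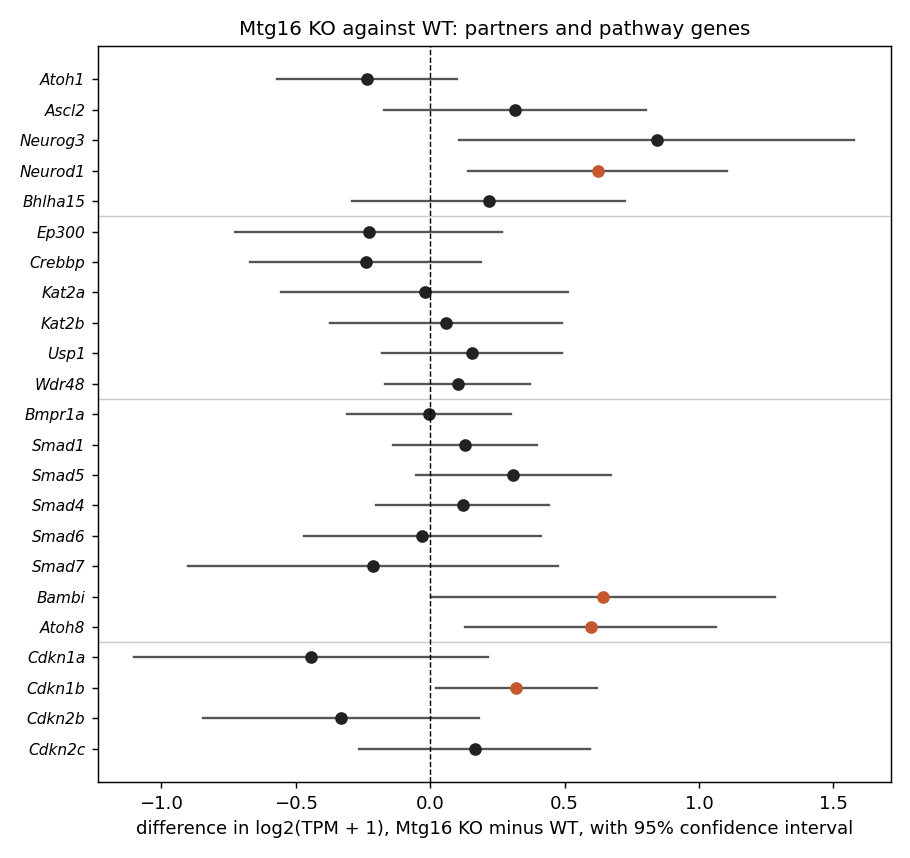
Difference in log2(TPM + 1) between Mtg16-/- and WT crypts with 95% confidence intervals from limma for the named partners, coactivators, BMP genes and CDK inhibitor genes, grouped by list (n = 3 mice per genotype). Orange marks genes whose groups do not overlap, which are Neurod1, Bambi, Atoh8 and Cdkn1b, all with positive differences from 0.32 to 0.64.

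The differences of the 7 members were recomputed under other ways of handling the table, and 0 members were called in any of them. The other filters, moderations and threshold and the replicate block leave a fold change as it was. Only the other pseudocount, the scalings and each mouse left out could change its sign or size. Id4 was positive in all 15 alternatives that kept it, from 0.60 to 0.82 on the log2 scale, with limma adjusted p from 0.113 to 0.586. Because its groups did not overlap, neither the other pseudocount nor a mouse left out could turn Id4 negative. Its sign was thus open only under the scalings, and the count of 15 adds nothing beyond them. Tcf3, Tcf4, Tcf12 and Id1 were positive in all 16, with Id1 as low as 0.0091 and Tcf4 as high as 0.38. Id2 and Id3 changed sign, with ranges of -0.19 to 0.25 and -0.14 to 0.10, so no direction is given for them.

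**Figure D5:**
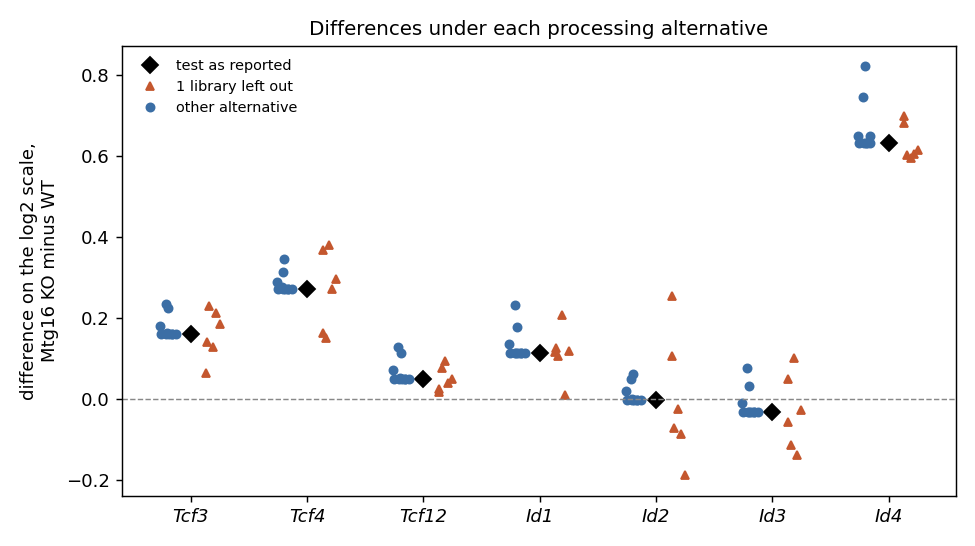
Difference between Mtg16-/- and WT crypts on the log2 scale for each of the 7 members in the reported fit and under each alternative, including each mouse left out (1 point per alternative). The points of Id4 lie between 0.60 and 0.82, and those of Id2 and Id3 lie on both sides of 0.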

How the data were processed

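Crypt RNA of 3 WT and 3 Mtg16-/- mice was depleted of ribosomal RNA, sequenced and quantified by the authors, who deposited TPM values per gene symbol from RSEM, rounded to 2 decimals. The submitters' processing notes list cutadapt 1.9.1, STAR 2.5.2a, RSEM 1.3.0, DESeq2 1.12.3 and mm10, and the annotation is not given in the sources used here. The depth is unknown, so no counting interval is given. TPM fixes the total of each library, so a rise in very high genes lowers all others.

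Groups follow the labels. Values were transformed as log2(TPM + 1), which understates changes of low genes. Genes reaching a mean TPM of 1 over the 6 libraries (12268) were tested with limma 3.58.1 (lmFit, eBayes with trend, no covariates, R 4.3.3), with Benjamini-Hochberg adjustment over all of them, and called at an adjusted p under 0.1. The calculation was tested on simulated data. A two-sided exact permutation test over the 6 libraries was added for single genes. The study reported more differentially expressed genes between these genotypes than were called here, and its count test could not be run on TPM values.

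The 7 members, the gene lists and the tests were chosen with earlier results of these data known. Named genes were the members, the MTG genes, in each list every called gene, the 4 tested genes of highest mean TPM and the tested gene of smallest unadjusted p, and for each member the 2 genes of closest pattern. Alternatives were another pseudocount, other filters, scalings, moderations and threshold, the replicate block and each mouse left out. Coordinates and coding sequence came from GRCm38 with GENCODE vM21, and promoters from RefSeq GRCm38.p6, matched by symbol.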

Additional observations from a re-analysis of the deposited data

How the results depend on the processing

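At an adjusted limma p under 0.1, 4 genes were called, 2 higher and 2 lower, and that count moved with most choices while 0 of the 7 members were called under each one. It was 4 with a pseudocount of 0.1, 15 with a mean TPM of at least 5, 20 with robust moderation, and 1 gene, higher in Mtg16-/-, after either median-ratio rescaling or quantile normalization. It was 0 without a filter on low values, 0 without the 100 highest genes and with the libraries rescaled to the rest, 0 without the intensity trend and 0 at an adjusted p under 0.05, where 2187, 1753, 1754 and 1789 genes had an unadjusted p under 0.05. With each mouse left out it ranged from 0 (without Mtg16-/- replicate 3) to 20 (without WT replicate 1).

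With the replicate number as a block, 1201 genes were called, 385 higher and 816 lower, which included Cdkn1a and Neurog3 as 2 genes of the lists and 0 of the members. For the pairing, each library was centred on its group, and libraries with the same number then had r = 0.429, 0.0753 and 0.237 across genes, so not every pair passed 0.1. The samples were taken to share only a number, although 5 of 6 libraries correlated best with their own number.

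Id2, at -0.0017, turned positive after median-ratio rescaling (0.0191), quantile normalization (0.04996) and without the 100 highest genes, rescaled (0.0616), and ranged from -0.19 to 0.25 with each mouse left out. Id3, at -0.03, turned positive after quantile normalization (0.0777) and without the 100 highest genes, rescaled (0.0326), and ranged from -0.14 to 0.10 with each mouse left out. The cause of these changes was not tested. Id4 ranged from 0.60 to 0.70 with each mouse left out, and had no value under the filter at a mean TPM of 5, which it did not reach. With 3 mice per genotype, the 95% intervals of the 6 members other than Id4 include 0, and TPM holds no read counts from which a depth limit could be given.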

Other observations

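Genes that E proteins are known to drive in lymphocytes were mostly at or near 0 in these crypts. Of 8 such genes, Rag1, Rag2 and Igll1 were at 0 in every library and 2 passed the filter. Ptcra had a TPM of 1.76, 0.19 and 1.49 in WT and 1.27, 1.71 and 0.87 in Mtg16-/- libraries, with a log2 fold change of 0.16 (limma adjusted p = 0.850). Cd79a had a log2 fold change of -0.0071 (limma adjusted p = 0.997).

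Siglech, a marker of the plasmacytoid dendritic cells that depend on Tcf4, was named after its values were seen and was too low to be tested with limma. Its TPM was 1.33, 0.77 and 0.75 in WT and 0.07, 0 and 0.29 in Mtg16-/- libraries, which did not overlap (two-sided exact permutation test, p = 0.1, the smallest possible). Any gene without overlap gets this p, so it adds nothing to the values. Of the 4 tested genes of the myeloid and dendritic list, 0 had groups that did not overlap. Cdkn2d, another CDK inhibitor gene named after its values were seen, had 9.62, 8.79 and 11.4 TPM in WT and 13.2, 12.3 and 11.8 in Mtg16-/- libraries, which did not overlap, with a log2 fold change of 0.30 (95% interval -0.04 to 0.63, limma adjusted p = 0.381).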
